A study of Mus musculus with 12 samples.

Results

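The Rhox genes (reproductive homeobox on the X) form a cluster of homeobox genes on the mouse X chromosome. The 10 symbols described here, Rhox1, Rhox2a, Rhox4b, Rhox5, Rhox6, Rhox9, Rhox10, Rhox11, Rhox12 and Rhox13, were chosen with their levels in all 12 libraries known, so their values are given as a description and no p is given for them. Of the 10 symbols, 9 had a row in the count table, 8 had a count in at least 1 library and 6 passed the filter on low counts. The table held 24391 symbols, 30 of them Rhox symbols, and 17115 genes were tested. Rhox5 was not analysed here.

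The study read total RNA of 4 female embryonic stem cell lines of the mouse (mESC). The lines were hybrids, with C57BL/6J-129/SvJ on one side of the cross and Mus musculus castaneus on the other. All 4 lines carried CreERT, a Cre recombinase switched on by 4-hydroxytamoxifen (OHT), in 1 allele of Rosa26. The 2 lines 5.3 and 5.16 were Rif1+/+ (WT, replicates 1 and 2), and the 2 lines 15.10 and 16.9 were Rif1F/F (floxed Rif1 alleles, replicates 3 and 4). RIF1 is a chromatin protein known for setting replication timing. From each line came 1 library before OHT, 1 from mESC treated with OHT for 2 days, and 1 from embryoid bodies (EB) formed over 2 days after the treatment. The Rif1F/F libraries are called F/F before OHT and KO after it, which gave 6 groups of 2 libraries. F/F titles hold KO as well as WT, and these libraries were read as undeleted because they had no OHT. The mESC were grown in serum with LIF and inhibitors of MEK and GSK3. With 2 lines per genotype, any other difference between the lines and the effect of Rif1 cannot be told apart.

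Rhox proteins are homeodomain transcription factors made mainly in the testis, ovary, epididymis and placenta. The cluster falls into an alpha subcluster (Rhox1 to Rhox4 genes), a beta subcluster (Rhox5 to Rhox9) and a gamma subcluster (Rhox10 to Rhox13), and several alpha genes exist as tandem copies. In the embryo proper much of the cluster is known to be silenced by DNA methylation during early development, whereas placental cells keep parts of it active.

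Because DNA methylation acts at CG pairs, the start-site windows of 4 members whose levels differed between the lines are shown, with CG in capitals. The windows run from 250 bases before to 50 bases after the gene's start, 5′ to 3′ on the gene's strand, from RefSeq on GRCm38.p6. Their positions are chrX:37222209-37222508 on the minus strand for Rhox1, chrX:37244742-37245041 on the plus strand for Rhox2a, chrX:38066225-38066524 on the plus strand for Rhox10 and chrX:38120590-38120889 on the plus strand for Rhox13.
Rhox1: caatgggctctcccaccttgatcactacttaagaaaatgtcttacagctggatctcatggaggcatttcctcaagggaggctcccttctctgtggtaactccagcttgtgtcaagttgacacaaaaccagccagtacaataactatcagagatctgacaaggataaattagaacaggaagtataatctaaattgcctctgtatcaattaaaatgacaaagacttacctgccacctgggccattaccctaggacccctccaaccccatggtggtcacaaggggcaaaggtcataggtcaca
Rhox2a: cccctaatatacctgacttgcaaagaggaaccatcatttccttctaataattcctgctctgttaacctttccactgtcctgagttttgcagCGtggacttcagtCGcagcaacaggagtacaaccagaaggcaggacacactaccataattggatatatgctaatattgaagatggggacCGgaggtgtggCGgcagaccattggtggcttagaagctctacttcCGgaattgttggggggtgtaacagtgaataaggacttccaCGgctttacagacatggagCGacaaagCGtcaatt
Rhox10: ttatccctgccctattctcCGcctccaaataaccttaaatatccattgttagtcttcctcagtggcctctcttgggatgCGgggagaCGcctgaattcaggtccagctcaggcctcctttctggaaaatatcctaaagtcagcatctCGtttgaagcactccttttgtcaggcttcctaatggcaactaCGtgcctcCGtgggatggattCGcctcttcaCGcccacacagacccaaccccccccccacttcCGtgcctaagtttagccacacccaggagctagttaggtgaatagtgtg
Rhox13: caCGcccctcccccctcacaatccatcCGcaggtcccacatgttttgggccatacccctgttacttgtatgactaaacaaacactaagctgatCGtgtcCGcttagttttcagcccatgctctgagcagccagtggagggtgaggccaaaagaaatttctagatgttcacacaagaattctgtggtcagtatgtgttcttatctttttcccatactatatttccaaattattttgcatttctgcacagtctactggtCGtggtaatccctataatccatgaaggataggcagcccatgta

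Of the 30 Rhox symbols in the table, 24 matched a window, 7 of them members. Rhox6 and Rhox9, whose levels also differed between the lines, had no window. The Rhox1 window held 0 CG pairs, the Rhox13 window 5, the Rhox2a window 8 and the Rhox10 window 9, against a median of 7 over 32851 mouse windows of the same length. Rhox4b had 10 CG pairs, Rhox11 7 and Rhox12 3. So the 4 members printed did not share a CG-rich or a CG-poor start. The E-box CACGTG, searched on both strands, was in 4 Rhox windows, those of Rhox4b, Rhox4e, Rhox4f and Rhox4g, and in 7.15% of all windows. The E2F6-type letters GCGGGA, searched on both strands, were in 0 Rhox windows and in 20.0% of all windows. The Rhox2a and Rhox2c windows were 99.7% identical when aligned.

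The 12 libraries held between 28600870 and 64808897 counts. The targeted gene Rif1 stood at 702 and 662 CPM (counts scaled to a common library size) in the KO mESC libraries against 1605 and 1455 in WT (log2 fold change −1.17, adjusted p = 4.41e-09 by edgeR's quasi-likelihood test), and at 789 and 845 CPM in KO EB against 1382 and 1342. It was already lower in F/F than in WT before OHT, at 1172 and 1172 against 1537 and 1752 CPM. One library differed from the rest: in WT mESC of line 5.3, Lars2 took 0.869% of all counts, and no more than 0.14% in any of the other 11. The condition libraries also differ in the first code of the description label, so condition and that code cannot be told apart. All 7 ES cell markers were detected in every library. Their summed level before OHT was 4166 to 4399 CPM in WT and 5393 to 5870 CPM in F/F. After OHT it was 5164 to 5258 CPM in WT mESC and 5536 to 5905 CPM in KO mESC. In EB it was 1335 to 1371 CPM in WT and 1470 to 1559 CPM in KO. In such bulk libraries, fewer cells of a type and less RNA per cell cannot be told apart.

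Summed over the members, the family was at its highest in KO EB. The sum was 55.7 and 49.4 CPM in WT and 45.6 and 44.1 CPM in F/F before OHT, 30.6 and 35.6 CPM in WT mESC and 52.7 and 53.2 CPM in KO mESC after OHT, and 20.6 and 24.6 CPM in WT EB and 114.3 and 104.9 CPM in KO EB. The genotype groups overlapped in none of the 3 conditions. The group means were 109.6 ± 6.66 CPM in KO EB and 22.6 ± 2.85 CPM in WT EB (SD, n = 2), a log2 ratio of 2.28. Before OHT the sums lay near each other while their makeup did not. Rhox6 made up 61.1% and 57.2% of the sum in the F/F libraries and Rhox13 1.66% and 1.8%, whereas Rhox6 made up 19.6% and 21% and Rhox13 30.9% and 28.1% in WT. Leaving out Rhox1 turned the F/F to WT log2 ratio of the sum from −0.23 to 0.12.

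**Figure D1:**
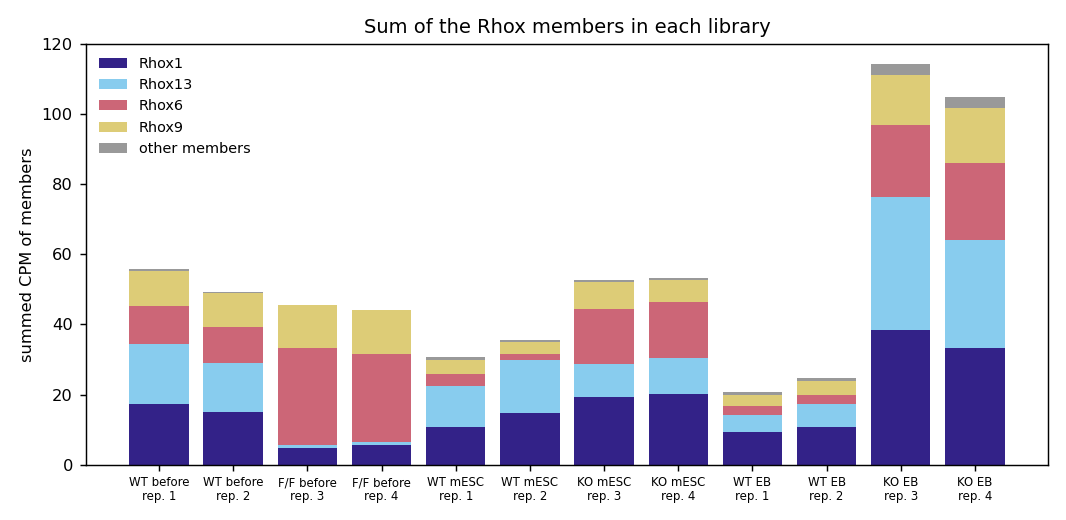
Summed CPM of the members in each of the 12 libraries, stacked by gene; the grey block holds Rhox2a, Rhox10, Rhox11 and Rhox12. The KO EB bars reach 114.3 and 104.9 CPM, and the F/F bars before OHT are mostly Rhox6.

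Rhox1, the first gene of the alpha subcluster, stood at 17.2 and 15.1 CPM in WT before OHT and at 4.77 and 5.64 CPM in F/F. After OHT it was at 10.8 and 14.7 CPM in WT mESC and at 19.2 and 20.3 CPM in KO mESC. In EB it was at 9.28 and 10.7 CPM in WT and at 38.3 and 33.4 CPM in KO. The order of the means, from F/F before OHT over WT EB, WT mESC, WT before OHT and KO mESC to KO EB, had no overlap between neighbouring groups. The floxed lines thus formed the lowest group before OHT and the highest 2 after it. Against WT, the log2 fold change was −1.63 ± 0.151 (SE) before OHT, 0.63 ± 0.137 in mESC after OHT and 1.84 ± 0.14 in EB.

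Rhox2a belongs to the tandem Rhox2 copies, and its level is uncertain because 91.1% of its 50-base words occur in other transcripts, 66.9% in Rhox2e. It stood at 0.422 and 0.169 CPM in WT and 0.049 and 0.048 CPM in F/F before OHT. It was at 0.246 and 0.251 CPM in WT mESC, 0.298 and 0.062 CPM in KO mESC, 0.303 and 0.368 CPM in WT EB and 0.587 and 0.584 CPM in KO EB. The KO EB group was highest without overlap, and the F/F group had the lowest mean. Both F/F libraries held 2 counts, as did the KO mESC library at 0.062 CPM. F/F and that library therefore differ in library size only and cannot be told apart. The 4 groups between F/F and KO EB overlapped one another in part. Before OHT, 22 counts in WT stood against 4 in F/F, a ratio per count depth of 6.16 with a 95% exact interval of 2.09 to 24.6 that covers counting error only. The log2 fold change against WT was −2.54 ± 0.767 before OHT, −0.49 ± 0.613 in mESC after OHT and 0.79 ± 0.489 in EB. Rhox4b, known from ES cells under the name Ehox, had 0 counts in every library, which allows up to 3 counts per library, or between 0.0492 and 0.103 CPM. Of its 50-base words, 93.7% occur in other transcripts, so reads of it may have been assigned elsewhere or nowhere.

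The beta members Rhox6 and Rhox9 are known from the placenta and from developing germ cells. Rhox6 stood at 10.9 and 10.4 CPM in WT and at 27.9 and 25.2 CPM in F/F before OHT. It was at 3.28 and 1.79 CPM in WT mESC after OHT, 15.7 and 16.0 CPM in KO mESC, 2.58 and 2.45 CPM in WT EB and 20.7 and 21.9 CPM in KO EB. F/F before OHT was the highest group, WT EB and WT mESC overlapped at the bottom, and no other neighbours in the order overlapped. The floxed lines were the higher ones in all 3 conditions, by 1.32 ± 0.154 on the log2 scale before OHT, 2.62 ± 0.175 in mESC after OHT and 3.08 ± 0.183 in EB.

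Rhox9 stood at 9.79 and 9.75 CPM in WT and at 12.1 and 12.3 CPM in F/F before OHT. After OHT it was at 4.00 and 3.24 CPM in WT mESC and 7.54 and 6.47 CPM in KO mESC, and in EB at 3.09 and 4.07 CPM in WT and 14.3 and 15.8 CPM in KO. As for Rhox6, WT EB and WT mESC overlapped at the bottom of the order, and the floxed lines lay above WT without overlap within each condition. The KO mESC libraries lay below the WT libraries before OHT. The log2 fold change against WT was 0.32 ± 0.139 before OHT, 0.95 ± 0.153 in mESC after OHT and 2.06 ± 0.153 in EB. Rhox6 and Rhox9 are close relatives, and 16.5% of the 50-base words of Rhox6 occur in Rhox9.

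Among the gamma members, Rhox13, known as a gene of fetal and postnatal male germ cells, varied the most between the lines before OHT. It stood at 17.2 and 13.9 CPM in WT and at 0.758 and 0.796 CPM in F/F. After OHT it was at 11.8 and 15.1 CPM in WT mESC and at 9.59 and 10.1 CPM in KO mESC, and in EB at 4.94 and 6.60 CPM in WT and at 38.0 and 30.7 CPM in KO. F/F lay lowest and KO EB highest, and WT mESC overlapped WT before OHT. The log2 fold change against WT was −4.32 ± 0.215 before OHT, −0.45 ± 0.156 in mESC after OHT and 2.57 ± 0.162 in EB. The mESC difference after OHT was −0.26 without the WT mESC library of line 5.16, and it no longer passed the threshold without that library or without either KO library.

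Rhox10, a factor of spermatogonia, was low throughout. It stood at 0.132 and 0.112 CPM in WT and at 0.024 and 0.024 CPM in F/F before OHT, 9 counts against 2. It was at 0.492 and 0.463 CPM in WT mESC, 0.397 and 0.401 CPM in KO mESC, 0.424 and 0.490 CPM in WT EB and 2.40 and 2.40 CPM in KO EB. KO EB stood above every other group, and the WT EB and WT mESC groups overlapped. Against WT, the log2 fold change was −0.26 ± 0.35 in mESC after OHT and 2.38 ± 0.289 in EB. Before OHT the ratio of WT to F/F was 5.04, with a counting interval of 1.04 to 48.0. Rhox11 and Rhox12, both known from the testis, had 3 counts each over all 12 libraries. Those of Rhox11 were 1 count in the F/F library of line 16.9 and 2 in the KO EB library of that line, and those of Rhox12 were 2 counts in the WT mESC library of line 5.3 and 1 in the KO EB library of line 15.10.

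**Figure D2:**
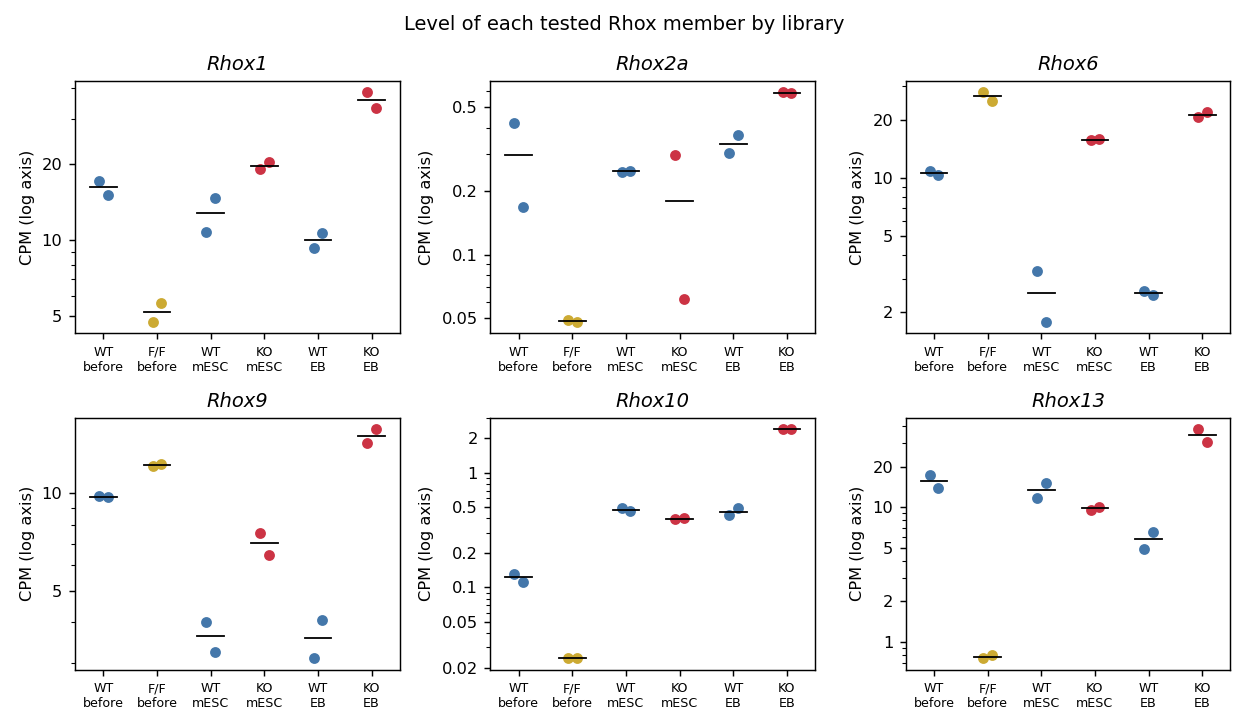
CPM of the 6 tested members in every library on log axes; points are libraries (blue WT, yellow F/F, red KO) and lines are means of 2. KO EB is the highest group for Rhox1, Rhox2a, Rhox9, Rhox10 and Rhox13, while F/F before OHT is the highest for Rhox6 and the lowest for Rhox1, Rhox2a, Rhox10 and Rhox13.

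Per kilobase of transcript, the tested members differed widely in level. In KO EB, Rhox1 reached 40.6 ± 3.95 CPM per kb (SD, n = 2) and Rhox13 39.2 ± 5.84, followed by Rhox6 at 21.1 ± 0.874. Rhox9 reached 17.1 ± 1.17 CPM per kb on its 882-base transcript and 6.22 ± 0.425 on its 2422-base transcript. Rhox10 reached 3.15 CPM per kb and Rhox2a 0.736. In F/F before OHT the order was another one, with Rhox6 at 26.3 ± 1.82 CPM per kb, Rhox1 at 5.89 ± 0.7 and Rhox13 at 0.887 ± 0.0304.

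Counting the 6 tested members against the share of all 17115 genes past an adjusted p of 0.05 in edgeR's quasi-likelihood test gives the background for each comparison. Since the members were chosen on these values, nothing is read from the counts. Between F/F and WT before OHT, 1 member was called higher and 4 lower, against 19.9% and 17.5% of all genes, with a median log2 fold change of −1.91 for the members and −0.00196 for all genes. Between KO and WT mESC after OHT, 3 were called higher and 1 lower, against 19.8% and 18.6%, with a median of 0.19. The 4 calls were also made without the WT mESC library that stood apart. Between KO and WT EB, 5 were called higher and 0 lower, against 20.7% and 19.7%, with a median of 2.22 for the members and −0.0171 for all genes. The remaining tested member in EB was Rhox2a. Before OHT, 3 members were called without the WT library of line 5.3 or without either F/F library.

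**Figure D3:**
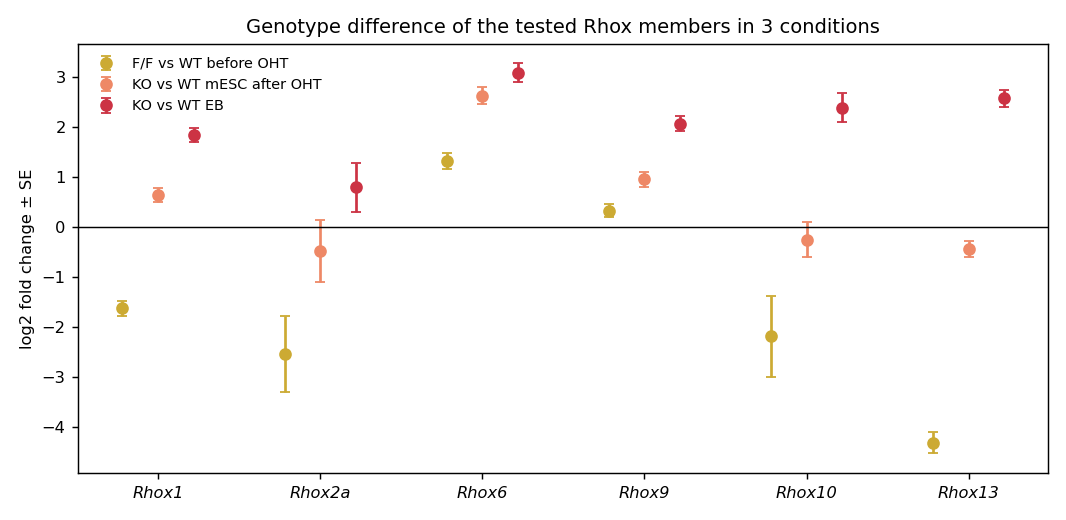
log2 fold change of floxed over WT lines, with its SE from the fit, for the 6 tested members before OHT (yellow), in mESC after OHT (orange) and in EB (red). Within each member the values run upward from before OHT to EB; for Rhox6 and Rhox9 all 3 lie above 0.

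The genotype differences themselves were set against each other. From before to after OHT in mESC, the log2 difference between the floxed and WT lines was higher by 3.87 ± 0.274 for Rhox13, 2.27 ± 0.204 for Rhox1 and 1.31 ± 0.232 for Rhox6, and 3 members were called higher and 0 lower, against 4.07% and 3.79% of all genes. Rhox10 (1.94 ± 0.884), Rhox2a (2.06 ± 1.03) and Rhox9 (0.62 ± 0.207) were not called. From mESC to EB it was higher by 3.01 ± 0.224 for Rhox13, 2.64 ± 0.454 for Rhox10, 1.21 ± 0.195 for Rhox1 and 1.11 ± 0.216 for Rhox9. In that contrast 4 members were called higher and 0 lower, against 14.8% and 13.7%. From before OHT to EB, 6 members were called higher and 0 lower, against 15.5% and 15.7%, and the difference ran from 1.74 ± 0.206 for Rhox9 to 6.88 ± 0.269 for Rhox13.

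Within the floxed lines, the members went different ways from before to after OHT. After it, the log2 fold change was 3.66 ± 0.223 for Rhox13 and 1.92 ± 0.151 for Rhox1, while Rhox6 was at −0.75 ± 0.151 and Rhox9 at −0.81 ± 0.144. Rhox10 had 25 counts after and 2 before, a ratio of 16.4 with a counting interval of 4.09 to 143.0. In all, 3 members were called higher and 2 lower, against 22.1% and 21.5% of all genes. In the WT lines over the same step, Rhox6 was at −2.05 ± 0.177, Rhox9 at −1.43 ± 0.148 and Rhox10 at 1.94 ± 0.43, and 1 member was called higher and 3 lower, against 24.9% and 24.2%. Rhox1 was no longer called, at −0.12, without the WT mESC library of line 5.3. So Rhox6 and Rhox9 were lower and Rhox10 was higher after OHT in both kinds of line, whereas Rhox1 and Rhox13 were higher in the floxed lines and had log2 values of −0.34 and −0.22 in WT.

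From mESC to EB, the WT lines showed little movement in most members. Rhox13 was at −1.21 ± 0.161 on the log2 scale and Rhox1 at −0.35, and 0 members were called higher and 2 lower, against 32.5% and 29.8% of all genes. Without the WT EB library of line 5.3, 1 member was called. Rhox6 was at −0.03, and leaving out either WT mESC library gave 0.45 or −0.39, each past the threshold. In the KO lines 6 members were called higher and 0 lower, against 31.4% and 27.6%. Rhox10 was higher by 2.58 ± 0.305, Rhox13 by 1.81 ± 0.155, Rhox9 by 1.10 ± 0.145, Rhox1 by 0.86 ± 0.134 and Rhox6 by 0.43 ± 0.153. Rhox6 was not called when any 1 of the 4 libraries was left out. Rhox2a was higher by 1.72 ± 0.572, and by 0.96, not called, without the KO mESC library of line 16.9.

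The other tested Rhox symbols, which are mostly tandem copies, were lower in F/F before OHT and higher in KO EB, as Rhox1, Rhox10 and Rhox13 were. Of 21 such symbols, 8 were tested: Rhox2b, Rhox2c, Rhox2d, Rhox2f, Rhox2g, Rhox2h, Rhox4g and Rhox7a. All 8 were called lower in F/F than in WT before OHT (median log2 fold change −3.59), against 17.5% of all genes. All 8 were called higher in KO than in WT EB (median 3.67, also with Rhox2f at its bound), against 20.7% of all genes. Rhox4g had 54 counts in WT and 3 in F/F before OHT, a ratio of 20.2 with a counting interval of 6.55 to 101.0. Rhox2b had 130 counts in the KO libraries of EB and 12 in those of WT, a ratio of 12 with an interval of 6.64 to 23.8. Rhox2f had 115 counts in the KO libraries of EB and 0 in those of WT, at least 21.1-fold higher against 3 counts per library. In mESC after OHT, 1 of the 8, Rhox2f, was called higher and 0 lower, and none without the WT mESC library that stood apart. Their counts are small and between 44.7% (Rhox2d) and 82.3% (Rhox2b) of their 50-base words occur in other transcripts, so the copies cannot be told apart with certainty. From mESC to EB, 0 of the 8 were called higher and 6 lower in WT, against 32.5% and 29.8% of all genes. In KO 6 were called higher and 0 lower over that step, against 31.4% and 27.6%. Rhox4a, with a few counts, was not tested.

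Of the genes that flank the cluster, the one next to Rhox1 differed the most between the lines. This gene, Gm9, annotated as protein-coding, was at 11 and 9.25 CPM in WT and 1.52 and 1.37 CPM in F/F before OHT, 12.3 and 12.4 CPM in WT mESC, 9.39 and 6.96 CPM in KO mESC, 5.31 and 4.88 CPM in WT EB and 23.6 and 21.1 CPM in KO EB. It was lower in F/F before OHT (log2 fold change −2.81, adjusted p = 1.72e-09), lower in KO mESC (−0.60, adjusted p = 0.00289) and higher in KO EB (2.14, adjusted p = 4.23e-09). On the other side, next to Rhox13, Zbtb33, which encodes the methyl-CpG-binding factor Kaiso, was at −0.10 before OHT (adjusted p = 0.307), 0.06 in mESC (adjusted p = 0.579) and 0.33 in EB (adjusted p = 0.00175). Of the 10 nearest tested genes on each side, 20 in all, 7 were called higher and 0 lower in KO EB, with a median log2 fold change of 0.14. That is 35.0% higher, against 47.1% of all X-linked and 20.7% of all genes. Before OHT 5 were called higher and 3 lower. In KO EB, Lamp2, a lysosomal membrane protein, was above WT by 0.45 and Nkap, a transcription and splicing factor, by 0.41. Before OHT, Lamp2 was already above WT by 0.32 in F/F, while Nkap was at −0.15. In mESC after OHT 1 was called higher and 4 lower (5.0% and 20.0%, against 19.8% and 18.6% of all genes). The lower ones included Stag2, a cohesin subunit, at −0.25 (−0.05 before OHT) and Cul4b, a ubiquitin ligase scaffold, at −0.21 (−0.22 before OHT). Another was Thoc2, an mRNA export factor, at −0.20 in mESC (0.08 before OHT). Without the WT mESC library that stood apart, 0 were called higher and 3 lower there. Inside the cluster the only genes that are no Rhox symbols with a row were Btg1-ps1 and Btg1-ps2, with 1 count each.

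**Figure D4:**
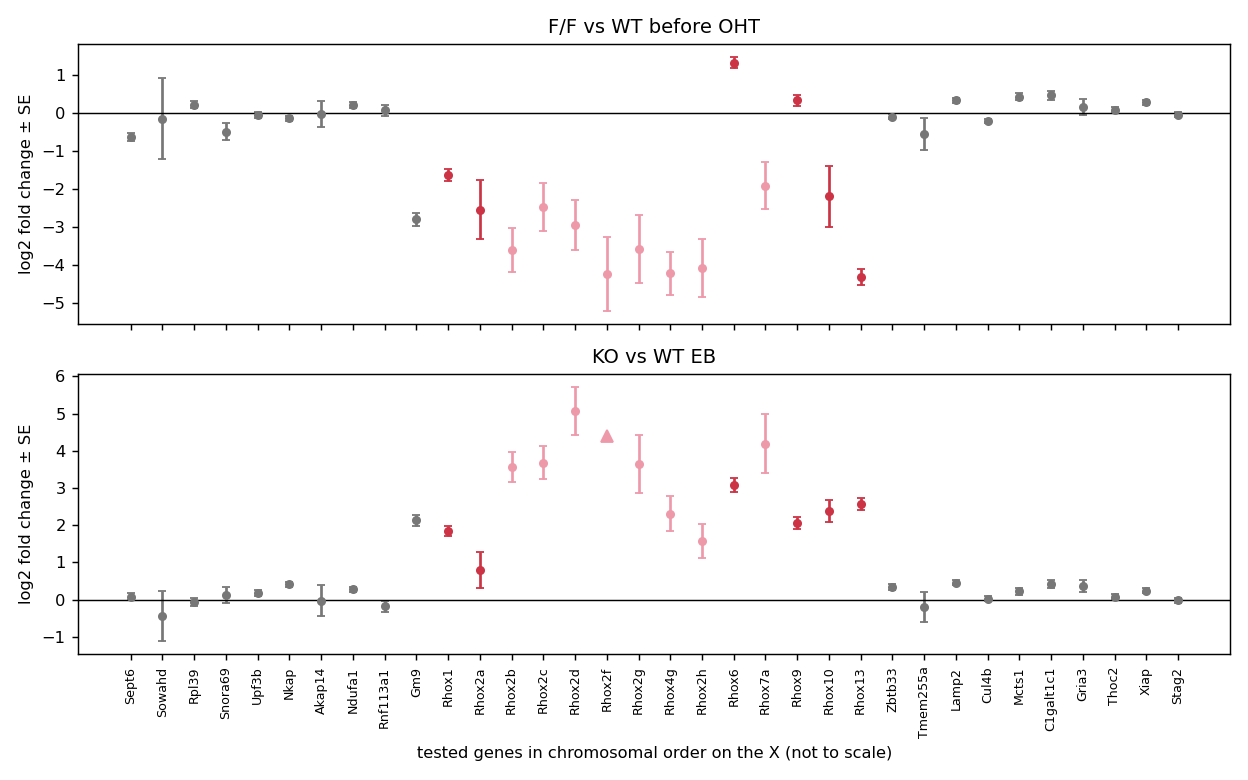
log2 fold change (points, with SE) of floxed over WT lines before OHT and in EB for the tested Rhox symbols (red members, pink others) and the 10 nearest tested genes on each side (grey), in chromosomal order. The triangle marks the lower bound of Rhox2f, which had 0 counts in WT EB; of the grey points only Gm9 lies past 1 log2 unit in either panel.

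The median of the X-linked genes also shifted with genotype in EB, although 310 of the 679 tested did not pass the test. The ratio of the median X-linked to the median autosomal level was 1.03 and 1.04 in KO EB against 0.702 and 0.744 in WT EB, and 0.631 and 0.57 in F/F against 0.767 and 0.738 in WT before OHT. Of 679 tested X-linked genes, 320 were called higher and 49 lower in KO EB (47.1% and 7.22%, against 20.7% and 19.7% of all genes). Their median log2 fold change there was 0.32. Before OHT, 106 were called higher and 201 lower in F/F (15.6% and 29.6%, against 19.9% and 17.5%), with a median of −0.11. In mESC after OHT the ratio was 0.775 and 0.761 in KO against 0.752 and 0.694 in WT. There, 153 of these genes were called higher and 119 lower (22.5% and 17.5%, against 19.8% and 18.6%), with a median of 0.0146. The part of this shift in the members' values was not tested, and their median in EB was 2.22.

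Other germline genes whose promoters carry DNA methylation in somatic cells were mostly lower in the floxed lines before OHT and went both ways in EB. Of 14 such genes, all tested, 0 were called higher and 11 lower in F/F before OHT (median log2 fold change −1.75, beside the shares of all genes given above), 2 higher and 11 lower in KO mESC (−0.75), and 7 higher and 6 lower in KO EB (0.29). Asz1, a piRNA pathway gene of male germ cells, was at 12.6 and 12 CPM in WT and 0.538 and 0.289 CPM in F/F before OHT, and at 7.06 and 7.33 CPM in WT EB against 41.6 and 40.2 CPM in KO EB. Its log2 fold change was −4.89 before OHT (adjusted p = 3.42e-12) and 2.51 in EB (adjusted p = 5.84e-11). Asz1 was at −1.51 in KO mESC. Dazl, an RNA-binding protein of germ cells, differed from WT by −2.86 before OHT, −1.17 in KO mESC and 1.69 in KO EB. Within the floxed lines it rose by 1.66 after OHT and was at −0.083 from mESC to EB (adjusted p = 0.407). Sycp1, of the synaptonemal complex, was at −4.27 before OHT, −2.79 in KO mESC (adjusted p = 2.51e-12) and −0.65 in KO EB. Taf7l, a germ cell TFIID subunit, was at −3.79, −2.16 (adjusted p = 7.7e-10 in KO mESC) and −0.75 in the same order. Syce1, also of the synaptonemal complex, was above WT by 1.64 in KO mESC and by 2.44 in KO EB, and the ribosomal protein gene Rpl10l, known from the testis, by 2.31 in KO EB. From before to after OHT the genotype difference of these 14 genes was called higher for 11 and lower for 1. The shares of all genes were 4.07% and 3.79%.

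**Figure D5:**
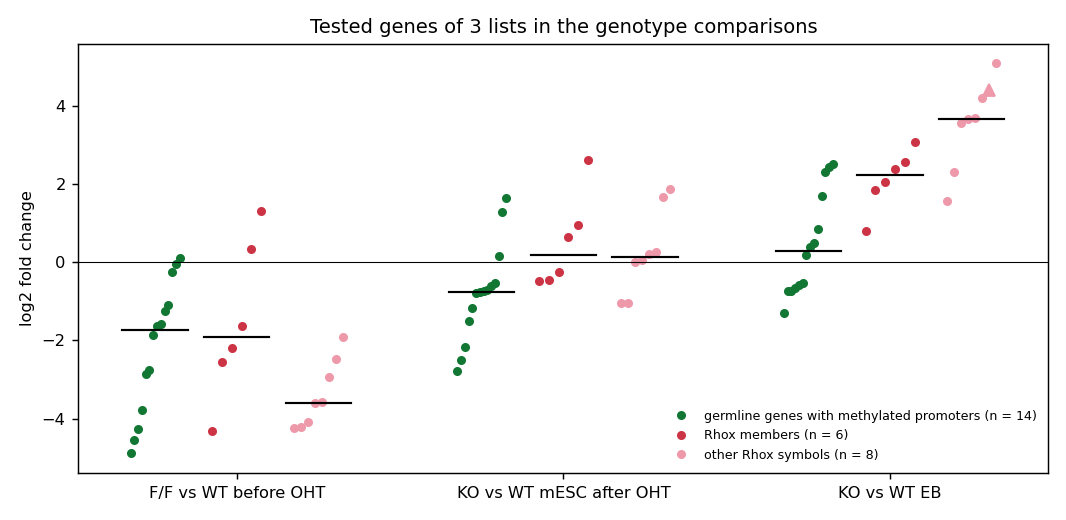
log2 fold change of floxed over WT lines for the tested genes of 3 lists in 3 conditions; each point is a gene, the line is the median of the list, and the triangle is the lower bound of Rhox2f. The germline genes lie mostly below 0 before OHT and on both sides of 0 in KO EB, where every tested Rhox symbol lies above 0.

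Many genes of a list on DNA methylation and H3K9 silencing were lower in KO EB. The list is mixed, as it also holds the demethylation genes Tet1, Tet2 and Tet3. Of its 19 genes, 1 was called higher and 11 lower in KO EB (5.26% and 57.9%, against 20.7% and 19.7% of all genes). In KO mESC 3 were called higher and 6 lower (15.8% and 31.6%, against 19.8% and 18.6%). In F/F before OHT 3 were called higher and 3 lower (15.8% each, against 19.9% and 17.5%). The de novo methyltransferase Dnmt3a was at 996 and 976 CPM in WT EB and at 392 and 383 CPM in KO EB (log2 fold change −1.35, adjusted p = 5.92e-10). It was already at −0.48 before OHT and at −0.57 in KO mESC. Dnmt3b was at −0.17 before OHT (adjusted p = 0.0739), −0.60 in KO mESC and −0.65 in KO EB. The chromatin remodeller Hells was at −0.42, −0.65 and −0.63, and its genotype difference did not pass the test between before and after OHT (adjusted p = 0.181). The H3K9 methyltransferase Ehmt2 was at −0.69 in KO EB. Dnmt3l, the cofactor of the de novo enzymes, was at −0.48 before OHT and −0.79 in KO mESC, and it was the 1 gene of the list called higher in KO EB, at 0.22. Without the WT mESC library that stood apart, 3 genes of the list were called higher and 4 lower in KO mESC.

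Of 14 genes of the PRC1.6 and E2F6 repressor complexes, 4 were called higher and 4 lower in KO EB (28.6% each, against 20.7% and 19.7% of all genes). In KO mESC 3 were called higher and 5 lower (21.4% and 35.7%, against 19.8% and 18.6%). In F/F before OHT 2 were called higher and 3 lower (14.3% and 21.4%, against 19.9% and 17.5%). Against WT, the repressor E2f6 was higher by 0.36 in KO EB and 0.41 in KO mESC. Its partner Tfdp1 was at −0.41 and −0.48, and already at −0.50 before OHT. The histone deacetylase Hdac2 was at 0.63 and the scaffold Mga at −0.48 in KO EB. In KO mESC Pcgf6 was at −0.39 and Wdr5 at −0.42, the latter at −0.31 before OHT. Linker histones are proteins known to bear on Rhox silencing in ES cells. Of 6 such genes, 6 were called higher and 0 lower in KO mESC, against 19.8% and 18.6% of all genes. In KO EB 3 were called higher and 0 lower, against 20.7% and 19.7%. In F/F before OHT 3 were called higher and 1 lower, against 19.9% and 17.5%. Against WT, Hist1h1b was at 0.99 before OHT, 1.27 in KO mESC and 1.14 in KO EB, H1f0 at 1.09, 0.58 and 0.80, and Hist1h1a at −0.09 (not called), 0.43 and 0.55. Hist1h1d was at 0.33 before OHT and 0.62 in KO mESC. Without the WT mESC library that stood apart, 5 of the 6 were called in mESC. Of 11 gonadal and general regulators tied to Rhox promoters, 2 were called higher and 2 lower in KO EB (18.2% each, against 20.7% and 19.7% of all genes). In KO mESC 2 were called higher and 1 lower (18.2% and 9.09%, against 19.8% and 18.6%). None of these shares lay above that of all genes. Ets1 rose by 0.80 and Elk1 by 0.30 in KO EB, Gata4 fell by 0.67 and Nr5a1, at very low counts, by 2.54 there, and in KO mESC Gabpa fell by 0.20 and Ets2 rose by 0.18.

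Markers of cells that use Rhox genes were read beside these values. The 7 primordial germ cell markers, led by Dazl, summed to between 906 and 953 CPM in WT and between 239 and 247 CPM in F/F before OHT, between 886 and 944 CPM in WT mESC and between 434 and 477 CPM in KO mESC, and between 158 and 167 CPM in WT EB and between 382 and 387 CPM in KO EB. The 9 trophoblast and placenta markers summed to between 43.4 and 44.9 CPM in WT EB and between 77.9 and 81.7 CPM in KO EB, below the 120.7 to 134.6 CPM of both genotypes before OHT. Of the 8 tested, 2 were called higher and 0 lower in KO EB, against 20.7% and 19.7% of all genes. The spongiotrophoblast gene Tpbpa had 1 count over all libraries. The 5 Sertoli cell markers summed to between 30.1 and 32.6 CPM in WT EB and between 12.6 and 13.6 CPM in KO EB, where Wt1 was called lower (log2 fold change −1.44) and the other 4 did not pass the test (median over the list −0.0109). The 5 formative epiblast markers summed to between 2552 and 2559 CPM in WT EB and between 1342 and 1355 CPM in KO EB, most of it from Dnmt3a and Dnmt3b, which the silencing list also holds. The 7 primitive endoderm markers summed to between 17.5 and 34.4 CPM over all libraries, and the 7 feeder fibroblast markers to between 4.34 and 18.0 CPM, highest in EB of both genotypes. The part of these cell types and states in the members' values was not tested.

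Likeness of pattern was measured as the root mean square difference of centred log2(CPM + 0.5) over the 12 libraries, among 13906 genes. Of Rhox1, Rhox6, Rhox9 and Rhox13, the members compared, Rhox6 and Rhox9 were the nearest to each other (0.66), Rhox1 and Rhox13 came next (0.777), and Rhox13 and Rhox6 were the farthest apart (2.12). The genes nearest the members' sum were Fundc1 (0.244), P4ha2 (0.247), Trim68 (0.303), Actn2 (0.305) and Scamp1 (0.306), against a median of 0.779 over all genes. Nearest Rhox13 were Gm9 (0.435), the gene next to Rhox1, and the germline gene Asz1 (0.487), with a median of 1.53 over all genes. Nearest Rhox1 was Cntln (0.254), nearest Rhox6 the X-linked long noncoding RNA AU015836 (0.436) and nearest Rhox9 the gene Kcnu1 (0.224).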

How the data were processed

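The values the authors deposited are raw read counts by gene symbol, in a single table of 12 libraries. The submitters' processing notes name mm9 as genome build and the tools BWA, HTSeq and DESeq2, without roles. Whether counting used strand is not stated there. Levels are CPM on TMM-scaled library sizes. For tests, edgeR 4.0.16 (R 4.3.3) fitted the 6 groups together and its quasi-likelihood F test was used, with TMM, filterByExpr and Benjamini-Hochberg adjustment over 17115 genes at 0.05; the SE is the log2 fold change divided by the square root of F. The code was tested on simulated data. Alternatives were DESeq2 1.42.0 and its size factors, no low-count filter, only the groups compared, CPM on total counts, a block for the cell line, the sum without Rhox1 or with every Rhox symbol, and leaving out each library.

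Members and gene lists were chosen with earlier results of these data known. Genes named beside the members were Rif1, other Rhox symbols with at least 10 counts, the nearest neighbours, up to 4 genes per list with the smallest adjusted p in KO against WT EB or mESC, and the 5 genes nearest in pattern to the members' sum. The rule also asked for the pattern of Rhox5, which could not be used; the patterns of Rhox1, Rhox6, Rhox9 and Rhox13 were used in its place and chosen after their values were seen. The values of 1 listed gene are not reported here. List counts without the WT mESC library that stood apart were also added after the data were seen.

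Replicate numbers stand for the same cell lines in each condition, so libraries are paired across conditions; deviations from the group means correlated between −0.118 and 0.117 within a line. Each line gave 1 library per condition. The spread behind the p-values was estimated within all 6 groups together and shared in part across genes, so it is not that of the 2 lines compared alone. The main fit treated the 12 libraries as independent. Transcript lengths and 50-base words came from GENCODE M21, and gene order and start-site windows from RefSeq, whose build GRCm38 differs from that of the counts.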

Additional observations from a re-analysis of the deposited data

Results flagged for a closer look

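The genotype difference of some members differed between conditions, by the contrast of the differences in edgeR's quasi-likelihood test; the members were chosen on these data, so these are descriptions. From before to after OHT, the log2 difference between floxed and WT lines moved by 2.27 for Rhox1, 1.31 for Rhox6 and 3.87 for Rhox13. From mESC to EB it moved by 1.21 for Rhox1, 1.11 for Rhox9, 2.64 for Rhox10 and 3.01 for Rhox13. From before OHT to EB it moved by 3.48 for Rhox1, 3.33 for Rhox2a, 1.77 for Rhox6, 1.74 for Rhox9, 4.57 for Rhox10 and 6.88 for Rhox13. The value of Rhox2a no longer passed, at 2.52, without the WT library of line 5.3 before OHT.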

How the results depend on the processing

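The counts of members called moved by over 1.5 times in 2 comparisons. Between F/F and WT before OHT, 5 members were called with all 6 groups in the fit, 3 with only the groups compared, and 3 to 4 when 1 library was left out; Rhox10 also lost its call with DESeq2 and with no low-count filter. Between WT EB and WT mESC, 2 were called, 1 with only the groups compared, and 1 to 3 when 1 library was left out. A fit with a replicate block for the cell line, possible only for contrasts between conditions, called the same number as the fit without it in each, such as 5 for the floxed lines after against before OHT and 6 for KO EB against KO mESC.

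The members' sum depended on Rhox1. Without it the log2 ratio went from −0.23 to 0.12 for F/F against WT before OHT and from 0.24 to −0.25 for the floxed lines after against before OHT, and with every Rhox symbol the latter was 0.29. Without Rhox1 it went from 2.28 to 2.54 for KO against WT EB, from −0.67 to −0.84 for WT after against before OHT and from 1.05 to 1.15 for KO EB against KO mESC. Leaving out 1 library gave 0.57 to 0.79 for KO against WT mESC, where the ratio was 0.68, and 0.99 to 1.11 for KO EB against KO mESC. The cause was not tested.

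The call of Rhox13 in KO against WT mESC was lost when any 1 library but the WT library of line 5.3 was left out (−0.26 to −0.48), and that of Rhox6 in KO EB against KO mESC when any 1 was left out (0.39 to 0.46). Rhox2a, Rhox10, Rhox11, Rhox12 and Rhox4b are limited by depth, and Rhox2a and Rhox4b also by copies that share sequence.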
